A study of Homo sapiens with 10 samples.

Results

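Genes of cholesterol and fatty acid synthesis were followed in KOPT-K1 cells, a human T-cell acute lymphoblastic leukaemia line, after a short exposure to silvestrol. The set is a list of 28 genes: 7 enzymes from acetyl-CoA to farnesyl diphosphate, 11 enzymes of squalene and sterol synthesis, 6 regulators or sterol carriers, and 4 fatty acid enzymes. Of these, 27 were found by Ensembl gene ID among the 55889 genes measured, and ACACA was not analysed here. Cells were given DMSO, the solvent control, or 25 nM silvestrol, an inhibitor of the RNA helicase eIF4A, for 45 minutes. Each treatment had 2 libraries of ribosome-protected fragments (footprints) and 3 libraries of total RNA. All libraries came from 1 cell line, and nothing in the labels says that replicates were separate cultures, so the p-values speak for the spread among these libraries alone, and that spread may be technical.

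Cells make cholesterol from acetyl-CoA through mevalonate, isoprenoid diphosphates, squalene and lanosterol, and they make fatty acids from acetyl-CoA through malonyl-CoA. The transcription factors SREBP-1 and SREBP-2, products of SREBF1 and SREBF2, raise the transcription of these enzymes when sterols in the endoplasmic reticulum are low. SCAP escorts them to the Golgi, where they are cleaved, and INSIG proteins hold SCAP back when sterols are high. Proliferating leukaemia cells need both products for new membranes, and eIF4A unwinds structured 5′ untranslated regions (UTRs) so that ribosomes can reach the start codon.

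Values were RPKM, reads per kilobase of gene, scaled to library size. The gene lengths used are not given, so levels compared between genes depend on lengths that are not known here. Depth estimated from the steps in low values was between 1.66 and 2.38 M reads in the footprint libraries and between 126.6 and 216.7 M in the RNA libraries. These estimates are rough because they assume gene lengths. The median SD between replicates over all tested genes was 0.18 (DMSO) and 0.19 (silvestrol) on the log2 scale in footprints and 0.04 and 0.05 in RNA. Genes were tested where the mean was at least 1 RPKM in both assays, which 10297 genes and 25 of the 27 matched members passed. Among 8 T-lineage markers, 7 had a mean of at least 1 RPKM in RNA, up to 673.8 for CD3D, and TRBC1 was at 0.167. All 10 markers of B, myeloid, erythroid, stromal, liver or fat cells that were matched stayed at or below 0.112 RPKM.

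Because eIF4A acts on 5′ UTRs, the UTR of 1 GENCODE 29 transcript per gene (build GRCh38) was searched for 2 patterns. The first was 4 GGC or CGG triplets in a row, and the second was 4 runs of at least 2 G separated by 1 to 7 letters, a pattern that can form a G-quadruplex. Only the transcript strand was searched. The triplet repeat was present in 1 of the 25 tested members, MVK, against 4.71% of 8812 tested genes with a 5′ UTR. It is shown first below, with the repeat in capitals. It starts 31 bases before the MVK start codon, whose first base is at chromosome 12 position 109574823 on the plus strand. The G-run pattern was present in 24 of the 25 tested members (96%) against 67.1% of the genes, and MVD, with a 5′ UTR of 30 nt, was the member without it. The shortest run of the pattern is shown for SREBF2 (chromosome 22), SREBF1 (chromosome 17), HMGCS1 (chromosome 5) and DHCR7 (chromosome 11), with the G runs in capitals, because these genes are taken up again with the footprint values. A G-run match overlaps the MVK repeat. A longer UTR has more room for a match, and the part of UTR length in these shares was not tested.
MVK: ggaGGCGGCGGCGGCGGCagg
SREBF2: GGcGGcGGGtGG
SREBF1: GGaGGaGGcGG
HMGCS1: GGtGGGttGGcGG
DHCR7: GGtaGGcGGcgtGG

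The median 5′ UTR of the tested members was 207 nt with 63.1% GC, against 180 nt and 66.3% over all genes. Among the longest were those of ACAT2 (1760 nt), SQLE (898 nt) and EBP (823 nt), at percentiles 99.7, 98.04 and 97.5 of all genes. These lengths belong to the chosen transcript models, and which start sites KOPT-K1 cells use was not measured. An ATG before the main start codon was present in 13 of the 25 (52%) against 50.5%. A purine at the third base before the start codon, the position that matters most in the Kozak context, was present in 22 of 25 (88%) against 86.7%. A G directly after the ATG was present in 13 of 25 (52%) against 55.0%. These 3 shares were close to those of all tested genes. The start codons of 4 members are shown with 12 bases before and 6 after, ATG in capitals, since the first pair had lower footprint values in both silvestrol libraries, SREBF2 was also lower and HMGCS1 was higher. The first base of the ATG is at chromosome X position 48523772 for EBP (plus strand), chromosome 11 position 71444952 for DHCR7 (minus strand), chromosome 22 position 41833271 for SREBF2 (plus strand) and chromosome 5 position 43298965 for HMGCS1 (minus strand), all on GRCh38.
EBP: gcccacaaagacATGactacc
DHCR7: ctggagggcccaATGgctgca
SREBF2: ctgagccgggcgATGgacgac
HMGCS1: agctctttcaccATGcctgga

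Promoters in RefSeq (GRCh38.p14; 250 bases before to 50 after the gene start) were searched on both strands for TCACNCCAC, the letters of a sterol regulatory element to which SREBPs bind. Promoters of 24 listed genes were available, and those of ACAT2, SQLE, FDFT1 and FASN were not. Of those searched, only the promoter of SREBF2 itself held the letters, at chr22:41832962-41832990 on the plus strand. The match, in capitals, starts at position -133 relative to the gene start. Among 15843 protein-coding promoters, 1.17% held a match. Other spellings of the element and sites outside these bases were not searched, so a missing match does not show that a gene lacks one.
SREBF2 promoter: tgacgcgccaTCACCCCACgcaccgcttc

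Total RNA of the pathway under DMSO covered a wide range of levels. ACLY, which makes cytosolic acetyl-CoA from citrate, was highest at 104 ± 1.00 RPKM (SD, n = 3). INSIG1 followed at 95.03 ± 0.92 and FDFT1, squalene synthase, at 87.9 ± 0.98. SCD, the desaturase that makes oleate, stood at 77.9 ± 2.25 and FASN, fatty acid synthase, at 66.8 ± 1.68. These 5 levels were separated by more than their replicate spread. At the low end of the tested members, TM7SF2, a sterol reductase, had 3.07 ± 0.16, INSIG2 3.86 ± 0.27, SC5D 3.91 ± 0.10 and MVK 4.05 ± 0.04 RPKM. INSIG2 lay within its spread of both SC5D and MVK, while SC5D and MVK differed by slightly more than their SDs.

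Both members that missed the filter act in sterol synthesis after lanosterol. CYP51A1, lanosterol demethylase, had 0.170, 0.174 and 0.199 RPKM in the DMSO RNA libraries and 0.159, 0.175 and 0.201 in the silvestrol RNA libraries. Its footprints were 0.325 and 0.739 RPKM under DMSO and 0.207 and 0.965 under silvestrol, an estimated 1.76 to 7.04 reads, and the groups overlapped. Other protein-coding gene models overlap CYP51A1 in GENCODE 29 and the counting of shared reads was not described in the labels, so its level is uncertain. HSD17B7, a ketosteroid reductase, had 2.91 to 3.23 RPKM in all 6 RNA libraries. Its footprints were 0.749 and 1.46 RPKM under DMSO and 0.306 and 0 under silvestrol, from at most 11.6 estimated reads, with both silvestrol values below both DMSO values. With the filter lowered to 0.1 RPKM both genes entered the fits, and neither was called. HSD17B7 then had a log2 change of -1.30 in footprints (SE 0.55, limma adjusted p = 0.802) and -1.36 in translational efficiency, footprints relative to RNA (SE 0.43, limma adjusted p = 0.526). CYP51A1 had 0.01 in footprints (SE 0.59).

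**Figure D1:**
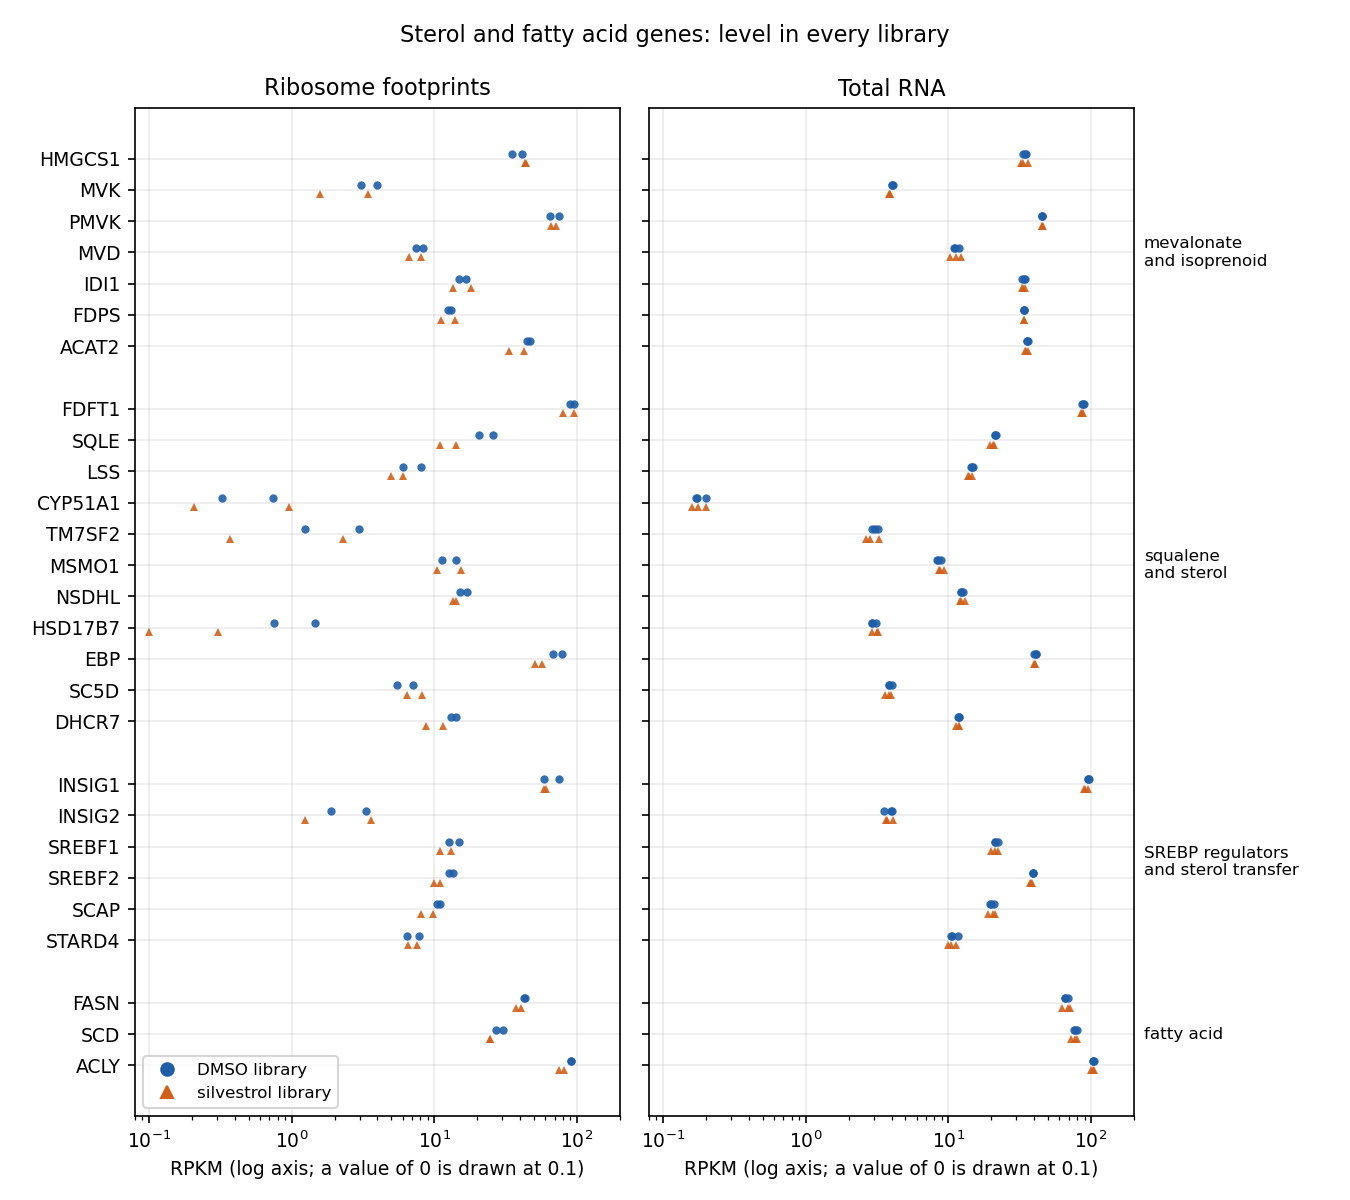
Level of the 27 matched genes in every library, as RPKM on a log axis, in footprints (left) and total RNA (right); circles are DMSO and triangles silvestrol libraries. RNA symbols lie nearly on top of each other while footprint values of low genes such as TM7SF2 and INSIG2 spread widely within a treatment.

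The first comparison asked whether silvestrol changed the RNA of the pathway within 45 minutes. No member was called at an adjusted p under 0.05 (limma on log2(RPKM + 0.5), all 10297 genes), against 29 genes called in all, or 0.282%. No member reached an unadjusted p under 0.05 either, while 9.23% of all genes did, and voom weights on estimated reads also called 0 members. The median log2 change of the 25 members was -0.02, with 20 of 25 below 0. Over all tested genes the median was 0.00 and 47.5% lay below 0. Leaving out 1 library gave 16 to 20 of 25 members below 0, and scaling to a common median gave 23. After that scaling the median log2 change was -0.03 over members and -0.01 over all tested genes. In bulk libraries, fewer cells with a transcript and less of it per cell cannot be told apart. Every member's 95% interval lay between a fold of 0.864 and 1.10. The narrowest interval was that of PMVK and the widest that of TM7SF2.

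In RNA, 3 members had silvestrol libraries below every DMSO library, namely MVK, SQLE and SREBF2, against 3.99% of all genes. PMVK, phosphomevalonate kinase, was the only member with all silvestrol libraries above DMSO, against 8.97% of genes. SREBF2 RNA was 38.9, 39.1 and 39.1 RPKM under DMSO and 38.1, 37.3 and 38.3 under silvestrol. The groups did not overlap, yet the log2 change was only -0.04 (SE 0.03, limma adjusted p = 0.748). SQLE RNA was 21.7, 21.3 and 21.1 RPKM under DMSO and 19.7, 21.0 and 20.5 under silvestrol, which gives -0.07 on the log2 scale (SE 0.03, limma adjusted p = 0.606). With libraries scaled to a common median, 5 of 25 members (20%) were lower without overlap beside 7.81% of all genes, and PMVK no longer stood above DMSO, where 7.22% of genes did.

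The second comparison asked whether ribosome occupancy changed. No member was called in footprints (limma adjusted p under 0.05), beside 5 of all tested genes, or 0.0486%. At an unadjusted p under 0.05 there were 2 members, SQLE and EBP, both lower, which is 8% of the members beside 6.98% of all genes, and voom called 0. The median log2 change was -0.18 over the 25 members, with 23 of 25 below 0. Over all tested genes the median was -0.07 and 59.5% lay below 0. With libraries scaled to a common median, by TMM factors or by quantiles, 18 of 25 members lay below 0, with medians of -0.14, -0.12 and -0.12. Scaling shifts the other genes too, so these values cannot be set beside the unscaled median and share of all genes. Footprint RPKM is relative to each library's total, so a fall shared by all genes would not be seen.

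Among members, 11 of 25 (44%) had both silvestrol footprint libraries below both DMSO libraries, where 25.2% of all genes did. With 2 libraries per treatment such a split is common, as that share shows. After scaling to a common median the counts were 10 of 25 (40%) beside 21.1% of genes, and with TMM factors 9 of 25 (36%) beside 19.1%. The 9 were ACAT2, ACLY, DHCR7, EBP, NSDHL, SCAP, SCD, SQLE and SREBF2, and FASN and LSS joined them in the values as deposited. HMGCS1 alone had both silvestrol libraries above DMSO, where 13.1% of genes did.

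By role, the median footprint change was lowest in the enzymes of squalene and sterol synthesis, at -0.33 over 9 tested genes, with 8 of 9 below 0. It was -0.04 over the 7 mevalonate and isoprenoid enzymes (6 of 7 below 0), -0.18 over the 6 regulators (6 of 6) and -0.20 over the 3 fatty acid genes (3 of 3). Without silvestrol replicate 1 the regulators were lowest at -0.28, beside -0.21 for the sterol enzymes, and without DMSO replicate 1 the sterol enzymes were at -0.16 and the regulators at -0.15. The difference between roles was not tested, and no gene of any role passed the test. Single genes also rested on few libraries: leaving out 1 footprint library moved the change of 21 of 25 members by over 1.5 times, and 10 of them changed sign. SQLE, EBP, SREBF2 and ACLY were the 4 members that moved less. For a change near 0, such as -0.01 for MSMO1, STARD4 or IDI1, a small shift is enough for both. Only INSIG1, MVK, ACAT2, TM7SF2, MSMO1 and INSIG2 moved by more than the SE of the fit with all libraries. The matching shares over all tested genes are not given here.

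SQLE, squalene epoxidase and a rate-limiting step of sterol synthesis, had the lowest footprint change of the tested members with all libraries. TM7SF2 was lower without DMSO replicate 2 (-1.15 beside -1.01) or silvestrol replicate 2 (-1.5 beside -0.67). HSD17B7, outside the filter, was also lower, from few reads. SQLE footprints were 25.7 and 20.6 RPKM under DMSO and 14.3 and 11.0 under silvestrol, from an estimated 96.4 to 251 reads per library. Both silvestrol values lay well below both DMSO values. Its RNA was also lower in every silvestrol library, with a smaller log2 change of -0.07 (SE 0.03). The log2 change in footprints was -0.85 (SE 0.21, limma adjusted p = 0.600), a fold of 0.555 with a 95% interval of 0.388 to 0.794. Leaving out 1 library gave between -1.03 and -0.67. It ranked at percentile 3.54 of the changes of all tested genes.

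EBP, the sterol isomerase that shifts the double bond of zymosterol-type sterols, had footprints of 67.9 and 78.2 RPKM under DMSO and 57.3 and 50.4 under silvestrol. Its RNA was 41.4, 41.0 and 39.9 RPKM under DMSO and 40.6, 40.2 and 40.0 under silvestrol. The footprint groups did not overlap and the RNA groups did. The log2 change in footprints was -0.44 (SE 0.14, limma adjusted p = 0.666). DHCR7, the reductase of the last step to cholesterol, had footprints of 13.1 and 14.2 RPKM under DMSO and 8.72 and 11.6 under silvestrol. On the log2 scale this was -0.42 (SE 0.21, limma adjusted p = 0.738), with no overlap in footprints, and it was -0.22 without silvestrol replicate 1 and -0.62 without silvestrol replicate 2.

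TM7SF2 had the second lowest footprint change of the tested members with all libraries, but its values were unsteady. They were 2.98 and 1.24 RPKM under DMSO and 0.370 and 2.31 under silvestrol, from 3.00 to 23.0 estimated reads, and the groups overlapped. Its log2 change was -0.65 (SE 0.69, limma adjusted p = 0.854), and it was 0.19 without silvestrol replicate 1 and -1.5 without silvestrol replicate 2. TM7SF2 also overlaps VPS51 in the annotation, so its reads are uncertain. MSMO1, the methylsterol oxidase, lay at the other end with footprints of 11.4 and 14.2 RPKM under DMSO and 15.4 and 10.4 under silvestrol, a log2 change of -0.01 (SE 0.25), which was -0.28 without silvestrol replicate 1 and 0.27 without silvestrol replicate 2. SC5D, the sterol desaturase before DHCR7, had 5.47 and 7.14 RPKM under DMSO and 6.42 and 8.21 under silvestrol. The SC5D groups overlapped, at 0.20 on the log2 scale (SE 0.25, limma adjusted p = 0.872), the highest among members with all libraries. It was 0.02 without DMSO replicate 1 and 0.04 without silvestrol replicate 2, both below HMGCS1, and 0.38 and 0.37 without DMSO replicate 2 or silvestrol replicate 1. The remaining sterol enzymes LSS, NSDHL and FDFT1 had log2 changes of -0.33, -0.20 and -0.08.

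Among the mevalonate enzymes HMGCS1, which makes HMG-CoA, had footprints of 41.2 and 35.3 RPKM under DMSO and 43.7 and 43.3 under silvestrol. Both silvestrol libraries were higher, by 0.19 on the log2 scale (SE 0.14, limma adjusted p = 0.810), and RNA overlapped between treatments. The HMGCS1 value was 0.30 without DMSO replicate 1 and 0.08 without DMSO replicate 2. MVK, mevalonate kinase, had 3.06 and 3.96 RPKM under DMSO and 3.44 and 1.57 under silvestrol. Those groups overlapped, at a mean change of -0.48 on the log2 scale (SE 0.40, limma adjusted p = 0.818), which was -0.94 without silvestrol replicate 1 and -0.02 without silvestrol replicate 2. MVK shares its locus with MMAB, and how shared reads were counted is not given. PMVK, MVD, IDI1 and FDPS had log2 changes between -0.09 and -0.01. ACAT2 is a cytosolic thiolase that joins acetyl-CoA units. Its footprints were 47.0 and 44.9 RPKM under DMSO and 42.6 and 33.4 under silvestrol, or -0.28 on the log2 scale (SE 0.16, limma adjusted p = 0.762), and its locus overlaps TCP1 and SOD2. The ACAT2 value was -0.45 without silvestrol replicate 1 and -0.11 without silvestrol replicate 2.

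**Figure D2:**
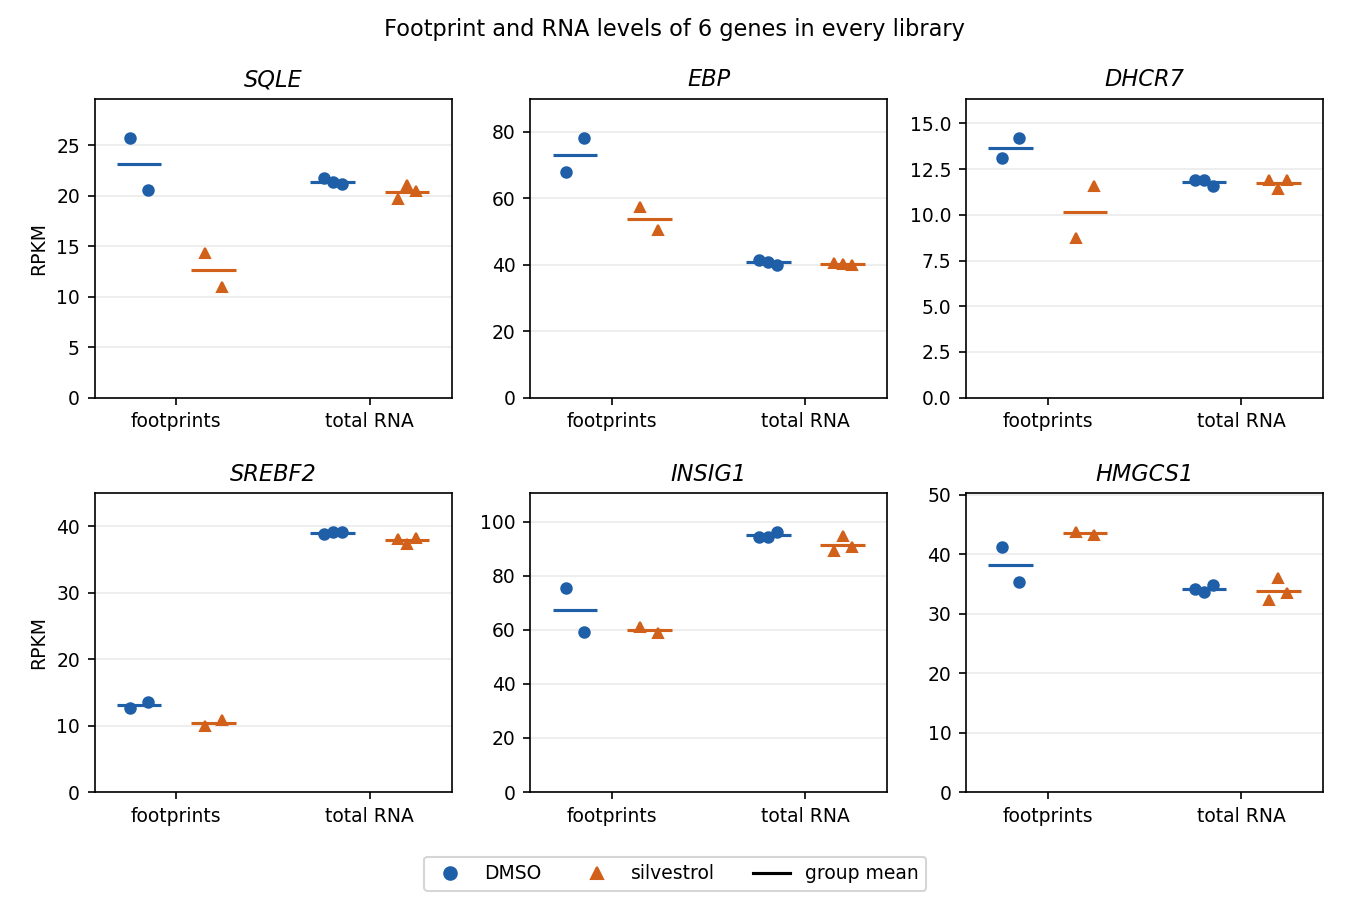
RPKM in every library for 6 genes, with footprints on the left and total RNA on the right of each panel and lines at the group means. SQLE, EBP, DHCR7 and SREBF2 footprints do not overlap between treatments and are lower under silvestrol, HMGCS1 footprints are higher, and the RNA values lie close together.

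The regulators were measured as follows. SREBF2 had footprints of 12.7 and 13.5 RPKM under DMSO and 9.89 and 10.9 under silvestrol, with no overlap and a change of -0.32 on the log2 scale (SE 0.18, limma adjusted p = 0.761). SREBF1 had 14.8 and 12.6 RPKM under DMSO and 13.2 and 11.0 under silvestrol. The SREBF1 groups overlapped, with a log2 change of -0.17 (SE 0.20), and its RNA of 21.4, 22.4 and 21.4 RPKM under DMSO overlapped with 22.4, 19.8 and 21.1 under silvestrol. Under DMSO the mean RNA level was 39.0 RPKM for SREBF2 and 21.7 for SREBF1, while their mean footprint levels were 13.1 and 13.7 RPKM. SREBF1 overlaps RAI1 in the annotation, and the gene lengths behind these levels are not given, so SREBF1 and SREBF2 are compared only roughly.

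SCAP had footprints of 10.9 and 10.5 RPKM under DMSO and 9.78 and 8.06 under silvestrol, which did not overlap. Its RNA was 20.0, 21.0 and 19.6 RPKM under DMSO and 21.1, 19.0 and 20.4 under silvestrol, with a footprint change of -0.26 on the log2 scale (SE 0.20, limma adjusted p = 0.810). INSIG1 had footprints of 75.3 and 59.2 RPKM under DMSO and 60.9 and 58.7 under silvestrol. These overlapped, and the log2 change of -0.16 (SE 0.16) was 0.01 without DMSO replicate 1 and -0.33 without DMSO replicate 2. INSIG1 RNA was 94.5, 94.5 and 96.1 RPKM under DMSO and 89.1, 94.8 and 90.6 under silvestrol, -0.05 on the log2 scale (SE 0.03, limma adjusted p = 0.658).

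INSIG2, the less expressed paralogue, had footprints of 1.90 and 3.35 RPKM under DMSO and 3.62 and 1.24 under silvestrol, from 9.97 to 34.0 estimated reads. Its RNA was 3.98, 3.55 and 4.04 RPKM under DMSO and 3.71, 4.12 and 3.64 under silvestrol. Values of both assays overlapped between treatments, and the footprint log2 change was -0.18 (SE 0.51). Without silvestrol replicate 1 it was -0.80, and without silvestrol replicate 2 it was 0.44. STARD4, which carries sterols between membranes, had a footprint log2 change of -0.01 (SE 0.22). The fatty acid genes FASN, SCD and ACLY had log2 changes of -0.13, -0.22 and -0.20 (SE 0.13, 0.15 and 0.12). For each of these 3 both silvestrol libraries lay below both DMSO libraries, as in ACLY footprints of 90.3 and 90.1 RPKM under DMSO and 75.2 and 81.6 under silvestrol.

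The third comparison asked whether translational efficiency, footprints relative to RNA, changed. The test gave footprint and RNA libraries their own spread, since footprint replicates varied several times more. No member was called (limma adjusted p under 0.05), beside 11 of all tested genes, or 0.107%. Unadjusted p under 0.05 was reached by 2 members, SQLE and EBP, both lower, beside 7.38% of all genes, and voom called 0. The median log2 change of members was -0.17 with 22 of 25 below 0, beside -0.08 over all tested genes with 59.9% below 0. After scaling by the median, TMM or quantiles, 17 of 25 lay below 0, with medians of -0.12, -0.10 and -0.10. These too cannot be set beside the unscaled values of all genes.

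Of the tested members with all libraries, SQLE had the lowest change of translational efficiency. It was -0.78 on the log2 scale (SE 0.23, limma adjusted p = 0.391), a fold of 0.581 with a 95% interval of 0.409 to 0.825. With 1 spread for both assays SQLE was called (limma adjusted p = 0.0385), in a fit that called 5.29% of all genes, and with voom weights its adjusted p was 0.0857. TM7SF2 followed at -0.59 (SE 0.62) and MVK at -0.43 (SE 0.33). TM7SF2 was below SQLE without DMSO footprint replicate 2 (-1.09 beside -0.94) or silvestrol footprint replicate 2 (-1.43 beside -0.60). EBP changed by -0.42 (SE 0.18, limma adjusted p = 0.628) and DHCR7 by -0.41 (SE 0.23). The highest changes were 0.23 for SC5D (SE 0.30), 0.20 for HMGCS1 (SE 0.26) and 0.03 for STARD4 (SE 0.35). None of these passed the threshold in the test with a spread per assay. Leaving out 1 footprint library moved 21 of 25 members by over 1.5 times here too, and 11 changed sign, some of them from values near 0. Only MVK, TM7SF2 and INSIG2 moved by more than the SE of the fit with all libraries. Without DMSO replicate 1 or silvestrol replicate 2 the SC5D value, 0.06 or 0.07, was below that of HMGCS1.

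A missed threshold does not show that the members did not change. In footprints the 95% interval lay above a 2-fold fall for 21 of 25 members and above a 1.5-fold fall for 11 of 25. For translational efficiency these counts were 21 and 8. The interval was narrowest for ACLY in footprints, from -0.50 to 0.09 on the log2 scale, and widest for TM7SF2, from -2.35 to 1.04. Among the members whose interval reached past a 1.5-fold fall, those of SQLE and EBP excluded no change in both measures, and the others included it. These intervals are not adjusted for the number of genes tested. Excluding 0 is the same as an unadjusted limma p under 0.05, which 6.98% and 7.38% of all genes reached in the 2 measures. Both measures use the same footprint libraries, and neither gene was called in these fits.

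**Figure D3:**
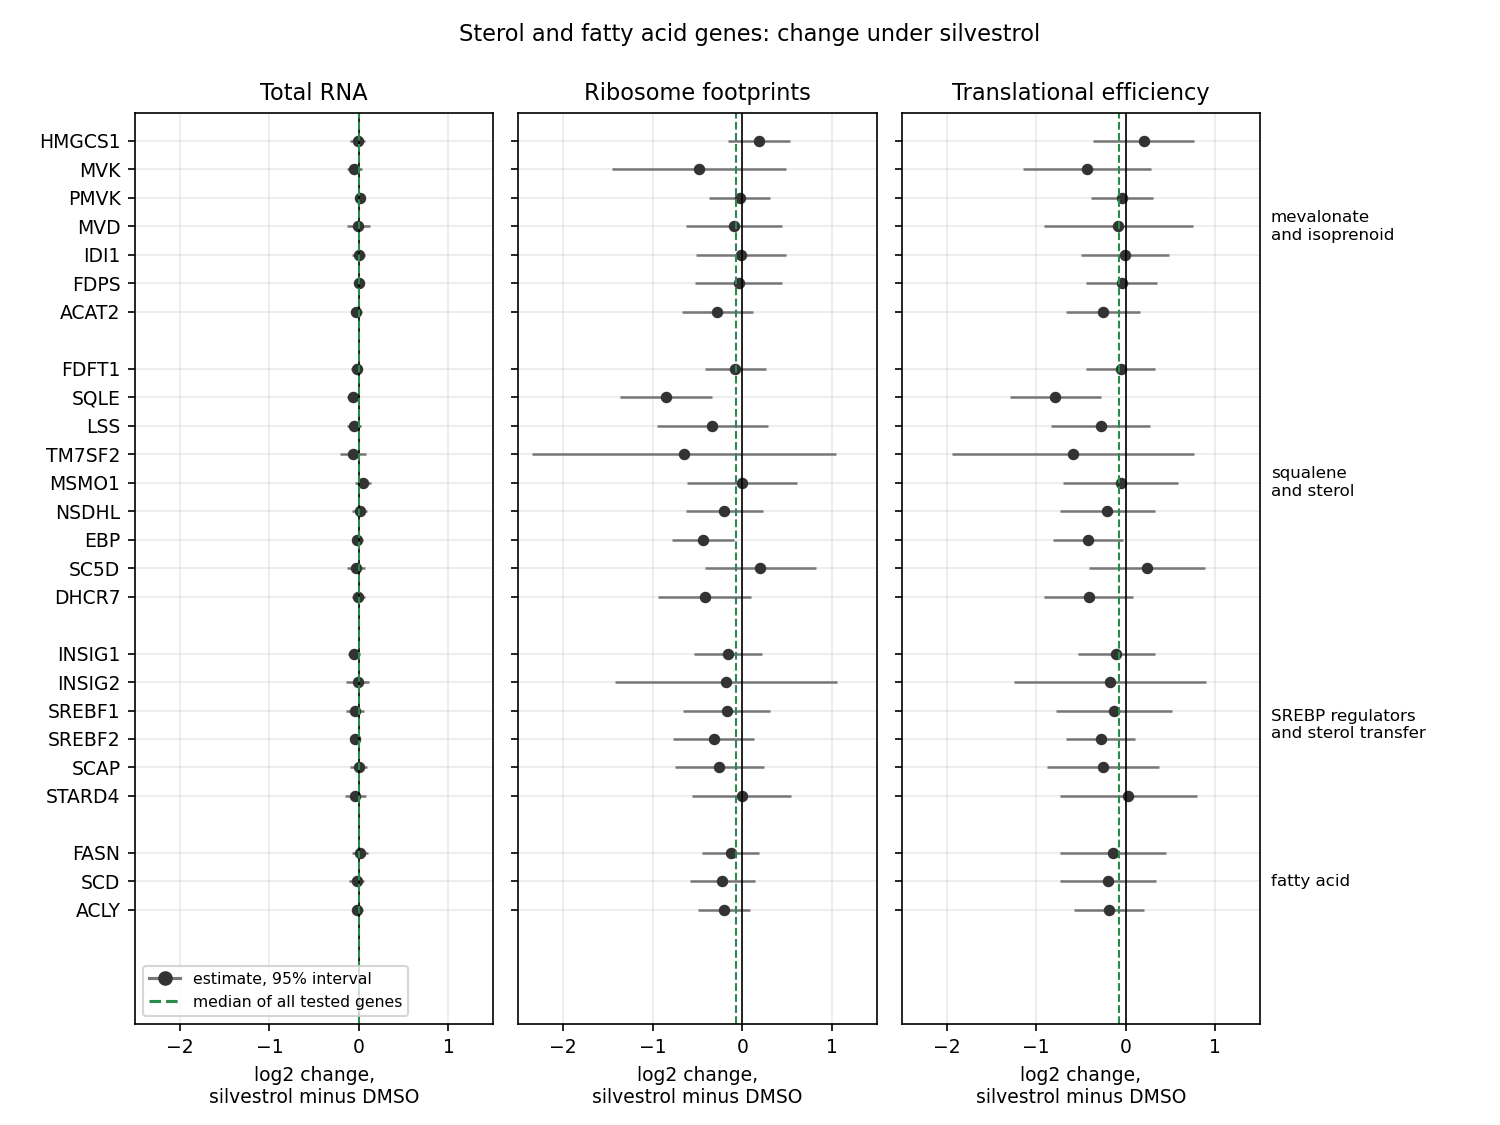
Log2 change (silvestrol minus DMSO) with 95% interval for the 25 tested genes in RNA, footprints and translational efficiency; the dashed line is the median of all tested genes. RNA changes cluster at 0 with short intervals, and the footprint and efficiency intervals exclude 0 for SQLE and EBP. Intervals are not adjusted for the number of genes tested, and neither gene was called in these fits.

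Members also differed in translational efficiency before any drug. Under DMSO the ratio of footprint to RNA RPKM, in which gene length cancels, had a median of 0.708 over the members and 0.724 over 9017 tested protein-coding genes. Of the 25 members 10 lay in the top 25% of those genes and 5 in the bottom 25%. The squalene and sterol enzymes held 7 of the 10, namely EBP (1.79), SC5D (1.61), MSMO1 (1.49), NSDHL (1.30), DHCR7 (1.16), SQLE (1.08) and FDFT1 (1.05). The other 3 were PMVK (1.55), ACAT2 (1.28) and HMGCS1 (1.12). All 6 regulators lay below the protein-coding median. SREBF2 was the lowest member at 0.336 (0.325 to 0.347 over pairs of libraries), followed by SCD at 0.367 and FDPS, farnesyl diphosphate synthase, at 0.377.

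Footprints fall mainly on coding sequence, so genes with long untranslated regions tend to have a low ratio per whole transcript. Footprints in untranslated regions were not counted apart. The ratio was therefore also divided by the coding share of 1 GENCODE 29 transcript per gene, a choice made after seeing the data, over 8927 genes. SCD, whose coding sequence is 20.1% of the transcript, moved from percentile 12.04 to 61.0. IDI1, an isomerase of isoprenoid synthesis with a coding share of 20.2%, moved from percentile 21.3 to 71.9, and STARD4 with 13.4% moved from 42.1 to 91.9. INSIG1 and INSIG2 rose to percentiles 75.6 and 76.3. SREBF2 stayed low at percentile 7.38, and SREBF1, SCAP and FDPS were at 18.6, 11.0 and 5.198.

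Per coding length, 3 of the 9 squalene and sterol enzymes were in the top 25% in place of 7, and 7 of 9 were at or above the median by both measures. The regulators parted into STARD4, INSIG1 and INSIG2 in the top 25% and SREBF1, SREBF2 and SCAP in the bottom 25%. The order of members by efficiency thus depends on the length used, apart from EBP, SC5D and MSMO1, which were in the top 25% by both measures, as were PMVK and ACAT2, and LSS, FDPS and SREBF2, which were in the bottom 25% by both. Places per coding length also rest on the chosen transcript models, such as that of ACAT2 with a 5′ UTR of 1760 nt.

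**Figure D4:**
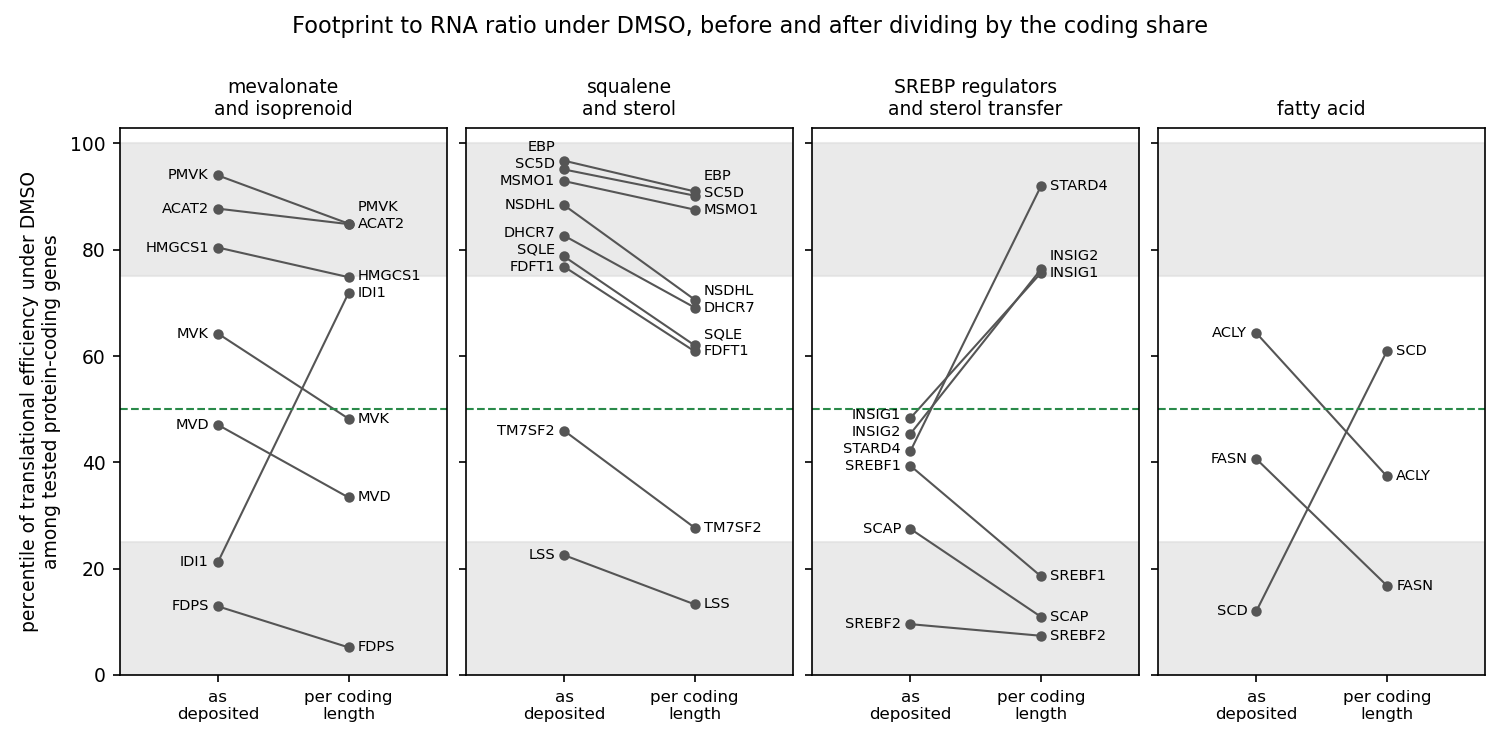
Percentile of the DMSO footprint to RNA ratio among tested protein-coding genes for the 25 members, before (left of each panel) and after (right) dividing by the coding share of the transcript; grey bands are the bottom and top 25% and the dashed line is the median. SCD, IDI1, STARD4, INSIG1 and INSIG2 move up, while SREBF2 and FDPS stay in the bottom 25%.

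Genes around the pathway were examined in 4 further lists. Of the 12 genes of SREBP processing and sterol-dependent degradation, such as the site-1 and site-2 proteases, 12 were tested. Of the isoprenoid branch and prenylation 12 of 15 were tested, of fatty acid activation, elongation and desaturation 20 of 24, and of sterol transport, storage and oxysterol response 13 of 15. No gene of these lists was called in RNA, footprints or translational efficiency (limma adjusted p under 0.05). Unadjusted p under 0.05 was reached in RNA by 1 SREBP processing gene, which was higher. Among the fatty acid genes it was reached by 1 gene in footprints and by 2 in translational efficiency, all lower. Those are 1 of 12, 1 of 20 and 2 of 20 genes, beside 9.23%, 6.98% and 7.38% of all genes in RNA, footprints and translational efficiency. The median footprint change was -0.15 for SREBP processing, -0.08 for the isoprenoid branch, -0.13 for the fatty acid list and -0.06 for sterol transport, beside -0.07 over all genes. Below 0 in footprints were 8 of 12, 7 of 12, 13 of 20 and 8 of 13 genes.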

How the data were processed

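Footprints (4 libraries) and total RNA (6 libraries) of KOPT-K1 cells were used as the authors deposited them: RPKM per Ensembl gene, per the file headers, 1 file per library. The submitters' processing notes name STAR and hg19, with no version or role. For the counter, gene lengths, strand use and multi-mapped reads, nothing is stated in the sources used here. IDs were named from a table (49395) and GENCODE 29 (267), and 6227 stayed unnamed. GENCODE 29 is on GRCh38, another build, so it gave only names, lengths, overlaps and UTR sequences.

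The groups came from the sample titles. Members and lists were chosen with earlier results of these data known. Log2(RPKM + 0.5), which understates changes of low genes, was fitted with limma 3.58.1 (R 4.3.3; trend, robust, two-sided, Benjamini-Hochberg) over the 10297 genes with a mean of at least 1 RPKM in both assays, on the 6 RNA or 4 footprint libraries. Translational efficiency was the assay by treatment interaction over 10 libraries, with weights per assay. The fits were tested on simulated data, where the share of false calls among calls was above the threshold on the adjusted p. Depth came from low values: between 90.2% and 92.9% lay within 0.05 of a whole read. No pairing was used. Deviations of same-numbered libraries correlated at r from -0.33 to 0.15, and those of differently numbered RNA libraries from -0.32 to 0.30. With 2 footprint libraries per treatment the deviations mirror each other, so these correlations cannot settle whether libraries were paired. Named genes are the 5 SREBP regulators, called members, and the 3 lowest and 3 highest changes in footprints and translational efficiency. Members named beyond that rule, such as EBP, DHCR7, SCD and those outside the filter, were chosen after their values were seen. The transcript per gene was the GENCODE basic protein-coding one with the best APPRIS tag, then support level and coding length. Alternatives covered pseudocounts, filters, scalings, a replicate block, voom and leaving out each library.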

Additional observations from a re-analysis of the deposited data

How the results depend on the processing

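No member was called in RNA, footprints or translational efficiency under any alternative run, except SQLE in translational efficiency with 1 spread for both assays (1 member, limma adjusted p = 0.0385). The members' median change stayed below 0 in all 3 comparisons under every alternative. Over the left-out libraries it ranged from -0.03 to -0.01 in RNA, from -0.21 to -0.13 in footprints and from -0.20 to -0.12 in translational efficiency. Scaling took it to -0.12 in footprints (TMM or quantiles) and to -0.10 in translational efficiency. Counts over all genes moved more. In RNA, 29 genes were called, and 5 with a filter of 0.1 RPKM, 0 with no filter, 73 with voom weights, an alternative added after seeing the data, and 0 to 35 when 1 library was left out. In footprints, 5 were called, and 2 with a pseudocount of 0.1, 3 with a filter of 0.1 RPKM, 280 with no filter, 8 with TMM factors, 8 with quantile normalization, 26 with voom weights and 0 when any library was left out. For translational efficiency, 11 were called, and 5 with a filter of 0.1 RPKM, 271 with no filter, 545 with 1 spread (411 lower and 134 higher), 22 with voom weights and 8 to 44 when 1 library was left out. With a replicate block, which the correlations can neither back nor exclude, 57 genes were called in RNA and 1 in footprints, with 14 for translational efficiency and 0 members in each. The cause of these shifts was not tested. The members' median translational efficiency under DMSO, 0.708, ranged from 0.706 to 0.866 when 1 DMSO library was left out and was 1.86 per coding length, which is another scale. In translational efficiency, MVK, TM7SF2 and INSIG2 moved most between leaving out silvestrol replicate 1 and replicate 2, with opposite signs: -0.89 and 0.04 for MVK, 0.26 and -1.43 for TM7SF2, and -0.79 and 0.45 for INSIG2. In all, 11 of 25 members changed sign there when 1 footprint library was left out, and 10 of 25 in footprints. A change near 0 needs only a small shift for this.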
